A study of Mus musculus with 4 samples.

Results

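The Cxcr4 chemokine axis was read as 3 genes of the 21822 gene units in the count tables: the receptor Cxcr4, its ligand Cxcl12 and the scavenger receptor Ackr3 (older symbol Cxcr7). They were chosen by name and not by their values, and each corresponded to 1 unit of RefSeq transcripts. Cxcl12 is a secreted chemokine that guides migrating cells and growing axons. Cxcr4 is a receptor coupled to inhibitory G proteins, and Ackr3 binds the same ligand, takes it into the cell and works through arrestins, which shapes how much Cxcl12 reaches Cxcr4. In the mouse spinal cord Cxcr4 is known from motor neurons whose axons leave ventrally, and Cxcl12 from the mesenchyme that surrounds the cord.

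RNA was sequenced from aggregates of mouse iMN-ESCs (background strain C57BL/6), derived from embryonic stem cells and made to express Isl1-Lhx3 when doxycycline (Dox) is added. In the Dox group (2 libraries), aggregates spent 2 days in stem cell medium with LIF and 2 days in 0.5 µM all-trans retinoic acid, followed by 2 to 3 days in retinoic acid with 2 µg/mL Dox. In the no Dox group (2 libraries) the same steps were run without Dox, so both groups carry the inducible construct and both received retinoic acid. Whether the line is a single clone is not given in the sources used here, and no library had Dox without the construct, so effects of Dox itself and of Isl1-Lhx3 cannot be told apart. Counts over parts of genes summed to 37311037 and 53903936 with Dox, and to 28239859 and 24020832 without. The labels were checked on the induced factors. Lhx3 stood at 125 and 108 CPM (counts per 1000000) with Dox and at 0.404 and 0.286 CPM without. Isl1 stood at 104 and 82.4 CPM with Dox and at 3.08 and 5.84 CPM without. Both fit the labels of all 4 libraries.

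The tables split Cxcl12 into 6 parts, since its transcripts share their first 3 exons and end differently. Known as the alpha, beta and gamma forms, they encode chemokines with the same core and different tails. The ends of the coding sequences are shown because parts 4 to 6 of the count table follow these alternative ends. Lower case marks the last 30 bases of the shared exon 3, capitals mark the bases that belong to the form's own end, up to and including the stop codon, and all are on the plus strand of chromosome 6 in GRCm38 (GENCODE M21).
Cxcl12-202 (alpha): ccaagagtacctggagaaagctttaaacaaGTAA
Cxcl12-203 (beta): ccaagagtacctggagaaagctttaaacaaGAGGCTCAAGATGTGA
Cxcl12-201 (gamma): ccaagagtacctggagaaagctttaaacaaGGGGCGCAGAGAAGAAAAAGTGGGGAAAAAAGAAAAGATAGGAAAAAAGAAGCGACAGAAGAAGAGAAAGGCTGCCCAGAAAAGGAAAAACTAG
The alpha end adds 4 bases after the shared exon, the beta end 16 and the gamma end 94. The coding sequences are 270, 282 and 360 bases long with their stop codons.

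Isl1 and Lhx3 are homeodomain proteins, a class that binds DNA around the core TAAT. The 250 bases before the annotated start of the receptor and of the ligand are printed because the log2 fold changes of these 2 genes, neither past the adjusted threshold, had opposite signs. Capitals mark TAAT or its reverse complement ATTA.
Cxcr4 (GRCm38.p6, chr1:128592300-128592549, minus strand): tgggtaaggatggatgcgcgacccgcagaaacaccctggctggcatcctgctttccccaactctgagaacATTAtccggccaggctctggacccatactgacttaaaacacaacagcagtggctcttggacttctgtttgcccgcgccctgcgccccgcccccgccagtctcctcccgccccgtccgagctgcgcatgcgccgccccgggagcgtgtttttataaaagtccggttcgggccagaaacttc
Cxcl12 (GRCm38.p6, chr6:117168285-117168534, plus strand): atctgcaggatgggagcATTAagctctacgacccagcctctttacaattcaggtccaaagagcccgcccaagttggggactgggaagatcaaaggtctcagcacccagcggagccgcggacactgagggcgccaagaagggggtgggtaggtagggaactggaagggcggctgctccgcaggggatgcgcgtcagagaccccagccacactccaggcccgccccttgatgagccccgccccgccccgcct
Each window held 1 match, and the same window of Ackr3 held 0. Of 32851 RefSeq promoter windows of this length 54.9% held at least 1 match, so a match is common. These letters are a description of the windows and show no binding.

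Among the members, the ligand Cxcl12 stood higher with Dox, while both receptors stood lower, and none of the 3 passed the adjusted threshold. By edgeR's quasi-likelihood test with Benjamini-Hochberg adjustment, 0 of 3 were called higher and 0 of 3 lower, against 1.23% of 14278 genes tested called higher and 0.0560% called lower. At an unadjusted p under 0.05, 1 member was higher (Cxcl12; 6.25% of all genes) and 1 lower (Ackr3; 4.01% of all genes). In each member the libraries of the groups did not overlap. Over all genes both Dox libraries lay above both others in 18.9% and below them in 19.9%. Since RNA came from whole aggregates, fewer cells of a type and less RNA per cell cannot be told apart.

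**Figure D1:**
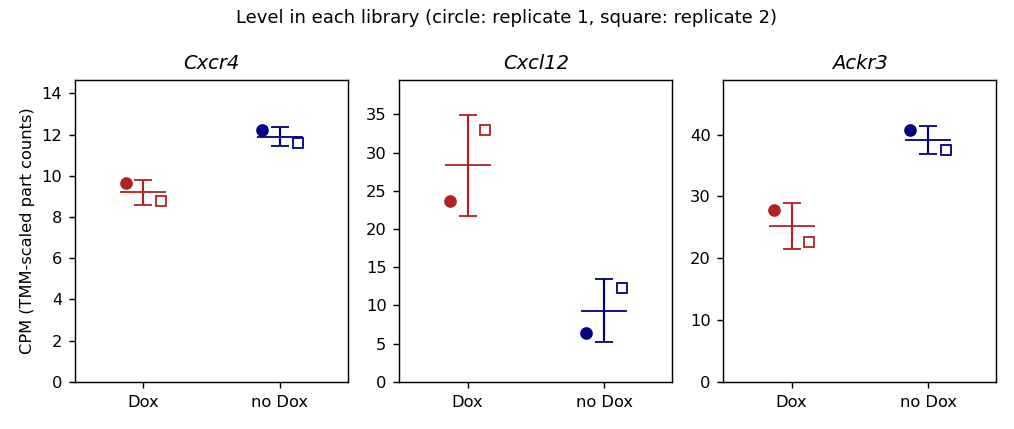
CPM of Cxcr4, Cxcl12 and Ackr3 in each library, with Dox at the left and no Dox at the right of each panel; the horizontal line is the mean of 2 libraries and the bar its SD. Cxcl12 sits at 23.7 and 32.9 CPM with Dox against 6.39 and 12.2 CPM without, and both receptors sit lower with Dox.

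Cxcr4, the signalling receptor, had 9.63 and 8.77 CPM with Dox, against 12.2 and 11.6 CPM without. Both Dox libraries lay below both others, by a narrow margin. Means were 9.20 ± 0.611 CPM with Dox and 11.9 ± 0.447 CPM without (SD, n = 2 each), and the ratio of a Dox to a no Dox library ran from 0.717 to 0.831 over the 4 pairs. The log2 fold change, Dox over no Dox, was -0.37 (SE 0.17, 95% interval -0.79 to 0.04), which did not pass edgeR's test (adjusted p = 0.55). Values rested on 360 and 479 counts with Dox and on 333 and 284 without. Of all genes tested, 8.1% had a lower log2 fold change, and 32.6% a lower mean CPM.

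Cxcl12 had 23.7 and 32.9 CPM with Dox, against 6.39 and 12.2 CPM without. Every Dox library lay above every no Dox library, and within each group replicate 2 was the higher. Means were 28.3 ± 6.54 CPM with Dox and 9.32 ± 4.14 CPM without (SD, n = 2 each). The ratio of a Dox to a no Dox library ran from 1.93 to 5.16 over the 4 pairs, and that of replicate 2 to replicate 1 was 1.39 with Dox and 1.92 without. The log2 fold change was 1.61 (SE 0.33, 95% interval 0.80 to 2.42), a fold of 3.05. It stood above that of 98.3% of the genes tested, yet edgeR's adjusted p was 0.115 (unadjusted p = 0.00288). DESeq2 called Cxcl12 higher (adjusted p = 2.84e-05), as it did 2.82% of all genes.

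Leaving out any single library also took Cxcl12 past the threshold in edgeR, and the library left out moved its size. Its log2 fold change was 1.82 with Dox replicate 1 left out (edgeR adjusted p = 0.00103; 1.92% of all genes called higher) and 1.37 with Dox replicate 2 left out (edgeR adjusted p = 0.0203; 1.89%). It was 1.22 with the lowest of the 4 libraries, no Dox replicate 1, left out (edgeR adjusted p = 0.0376; 1.87%). Leaving out no Dox replicate 2 gave 2.15 (edgeR adjusted p = 0.00267; 1.91%). The group left with 1 library is assumed in them to vary like the other group.

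Ackr3, the scavenger receptor, had 27.9 and 22.6 CPM with Dox, against 40.7 and 37.6 CPM without. The Dox libraries lay below the others and farther apart from each other than the no Dox libraries were. Means were 25.2 ± 3.73 CPM with Dox and 39.1 ± 2.26 CPM without (SD, n = 2 each), and the ratio of a Dox to a no Dox library ran from 0.555 to 0.743. The log2 fold change was -0.63 (SE 0.15, 95% interval -1.01 to -0.26), and edgeR's adjusted p was 0.176 (unadjusted p = 0.00606). DESeq2 called it lower (adjusted p = 0.0462), close to the threshold, as it did 0.812% of all genes. Only 3.64% of the genes tested had a lower log2 fold change. With a library left out its log2 fold change lay between -0.79 and -0.47, and edgeR called it in none of these fits (adjusted p from 0.0872 to 1). They called 0.805% and 0.133% of all genes lower with Dox replicate 1 or 2 left out, and 0.163% and 0.620% with no Dox replicate 1 or 2 left out.

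**Figure D2:**
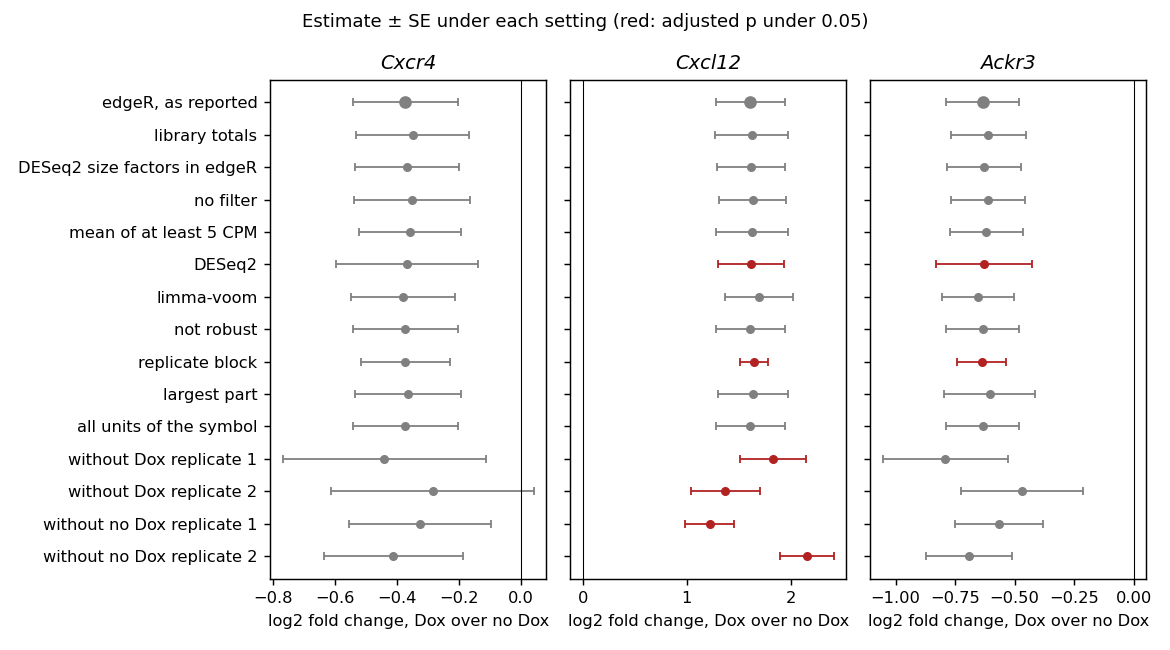
Log2 fold change of each member, Dox over no Dox, under each setting, with bars of 1 SE; red points have an adjusted p under 0.05. Cxcl12 lies between 1.22 and 2.15 and is red in 6 of 14 alternatives, while Cxcr4 is red in none.

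Levels of different genes can be set side by side only per length, here as CPM per kb of annotated exon (1805 bases for Cxcr4, 7160 for Cxcl12 and 2038 for Ackr3). Over the whole units Ackr3 was the most abundant member in every library on that scale, at 13.7 and 11.1 CPM per kb with Dox and 20.0 and 18.4 CPM per kb without. Cxcr4 stood at 5.34 and 4.86 CPM per kb with Dox, against 6.77 and 6.42 CPM per kb without. The ligand was the least abundant over the whole unit in every library, at 3.31 and 4.60 CPM per kb with Dox and 0.892 and 1.71 CPM per kb without. The level of Cxcl12 per level of Cxcr4 was 0.620 and 0.947 with Dox, against 0.132 and 0.266 without. With Cxcl12 higher and Cxcr4 lower in both Dox libraries, the groups could not overlap in this ratio, so their separation adds no further result. The level of Ackr3 per level of Cxcr4 differed less, at 2.56 and 2.28 with Dox and 2.95 and 2.87 without. The lengths come from a later genome build than the one behind the counts, and Cxcl12 has long ends that a given transcript holds only in part, so its level over the whole unit is understated. On its shared exon 3 alone Cxcl12 stood above the whole unit of Cxcr4 in both Dox libraries and in no Dox replicate 2. Against the whole unit of Ackr3 it was higher in Dox replicate 2 (17.5 against 11.1 CPM per kb). The 2 were level in Dox replicate 1 (13.8 against 13.7 CPM per kb). The order of the 3 members thus depends on the length used. A short exon also collects reads that only overlap it.

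All parts of Cxcl12 stood higher in both Dox libraries than in both others. The part found only in the gamma form (part 5, 2497 bases) had 149 and 261 counts with Dox, against 19 and 18 without. Its level was 1.60 and 1.91 CPM per kb with Dox and 0.279 and 0.294 CPM per kb without, a fold of 6.12 between the means. The alpha-only part 4 (1491 bases) had 2.94 and 4.26 CPM per kb with Dox and 1.08 and 1.97 CPM per kb without, a fold of 2.36. Part 6, shared by the beta and gamma forms, had 4.28 and 6.46 CPM per kb with Dox and 1.08 and 2.52 CPM per kb without, a fold of 2.98. The fully shared exons 2 and 3 held the highest levels per kb, and exon 3, wholly coding, had 13.8 and 17.5 CPM per kb with Dox, against 5.06 and 7.97 CPM per kb without.

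**Figure D3:**
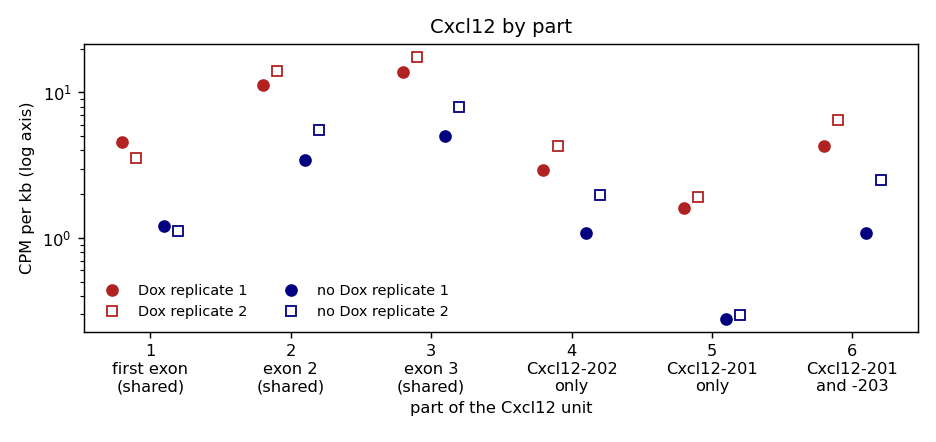
Level of each Cxcl12 part in CPM per kb, on a log axis, in each library, with Dox in red and no Dox in dark blue. The part unique to the gamma form lies at 1.60 and 1.91 with Dox and at 0.279 and 0.294 without, the widest gap of the 6 parts.

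As a share of the counts of Cxcl12, the gamma part held 16.8% (95% Wilson interval 14.5 to 19.4) and 14.5% (13.0 to 16.2) with Dox. Without Dox it held 10.9% (7.10 to 16.4) and 6.00% (3.83 to 9.28). The alpha part held 18.5% and 19.3% with Dox and 25.3% and 24.0% without. These intervals cover counting error only. The test of unequal use of parts did not call Cxcl12: edgeR's gene-level F test gave an adjusted p of 1 (unadjusted p = 0.364), in a test that called 0.0379% of 13200 genes. The gamma part by itself differed from the rest of the gene by 0.72 on the log2 scale (edgeR unadjusted p = 0.0414, adjusted p = 1). The parts were matched to the annotation by their number and order, since the tables hold no positions.

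As for Cxcl12, edgeR's gene-level F test called no unequal use of parts in either receptor (unadjusted p = 0.224 for Cxcr4). In Ackr3 the long second exon, which holds the coding sequence, had 96.1% and 97.0% of the counts with Dox and 95.9% and 97.2% without (edgeR part use, unadjusted p = 0.98). In Cxcr4 the second exon had 96.1% and 97.3% with Dox and 97.3% and 98.6% without, and the short first exon had between 4 and 14 counts in each library, too few to compare its use.

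Apart from Cmklr1, the other chemokine receptors on the list had low counts or none. Of 22, 4 passed the filter on low counts and edgeR called 0 of them higher or lower, with 0 at an unadjusted p under 0.05. No counts at all were found for 8, among them Cxcr3, Cx3cr1 and Ccr2, where a floor of 3 counts corresponds to 0.0557 to 0.125 CPM depending on the library. Cmklr1, the receptor for chemerin, carried most of the reads of this group, with 53.9 and 60.6 CPM with Dox and 60.6 and 55.3 CPM without (edgeR adjusted p = 0.995). Ackr1, another scavenger, had 1.28 and 1.43 CPM with Dox and 1.76 and 2.33 CPM without (edgeR adjusted p = 0.615). Cxcr5, the receptor for Cxcl13, had 5 to 22 counts in a library.

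Of 29 other chemokine ligands 7 could be tested and edgeR called 0. Unadjusted, 1 was lower and 0 were higher at a p under 0.05, beside 4.01% and 6.25% of all genes. The median log2 fold change of the 7 was -0.05, against -0.01 over all genes. Ccl25, Cx3cl1 and Cxcl16 were the most abundant. Cx3cl1, the membrane-bound chemokine of neurons, had 6.26 and 6.22 CPM with Dox and 7.05 and 5.88 CPM without. Cxcl16 had 4.68 and 5.47 CPM with Dox and 4.77 and 4 CPM without, so the groups overlapped in both. The highest log2 fold change among the 7 was 0.21, against 1.61 for Cxcl12. The difference between Cxcl12 and these genes was not tested.

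A list of 14 genes held proteoglycans and proteases that bind or cut Cxcl12 together with other partners of the axis, among them Cd74, Mif, Hmgb1 and Adm. Of 13 tested, edgeR called 0. With p unadjusted, 4 were higher and 0 lower at 0.05, beside 6.25% and 4.01% of all genes. The median log2 fold change was 0.10. These 4 were named after their values were seen. Mmp14, a membrane metalloprotease, had 55.5 and 57.4 CPM with Dox and 28.5 and 35.1 CPM without (edgeR adjusted p = 0.0664). Mmp2, which cleaves Cxcl12, had 28.9 and 35.4 CPM with Dox and 16.5 and 23.6 CPM without. Sdc2, a heparan sulfate proteoglycan, had 88.1 and 63.8 CPM with Dox and 52.5 and 38.4 CPM without, and Cd74, a receptor for the cytokine Mif, had 2.01 and 2.25 CPM with Dox and 0.624 and 0.898 CPM without. In all 4 both Dox libraries lay above both others, as in 18.9% of all genes. Since the 4 were picked by their p in these same libraries, this adds no support. Of the 3 most abundant genes of the list, Sdc4, another heparan sulfate proteoglycan, had 77.3 and 87.2 CPM with Dox and 87.0 and 82.5 CPM without. Cd164, a sialomucin that associates with CXCR4 in human cells, had 387 and 451 CPM with Dox and 386 and 398 CPM without. Dpp4, a protease that inactivates Cxcl12, had 103 and 72.7 CPM with Dox and 122 and 86.6 CPM without (edgeR adjusted p = 0.836).

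Downstream of the receptor, edgeR called 1 gene of each list higher, where 1.23% of all genes were called higher. Among 22 receptor kinases, arrestins, G protein subunits and regulators, all tested, edgeR called 1 higher and 0 lower. Gng2, a gamma subunit of G proteins, had 148 and 146 CPM with Dox, against 54.0 and 50.8 CPM without, a log2 fold change of 1.49 (SE 0.11, edgeR adjusted p = 0.00351). Among 23 tested kinases and motility effectors of 25, edgeR also called 1 higher and 0 lower. Plcb1, a phospholipase C that G proteins activate, had 49.0 and 38.0 CPM with Dox, against 14.0 and 11.6 CPM without, a log2 fold change of 1.76 (SE 0.19, edgeR adjusted p = 0.014). Both genes serve many receptors besides Cxcr4. The medians of the lists were -0.02 and -0.01, beside -0.01 over all genes.

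**Figure D4:**
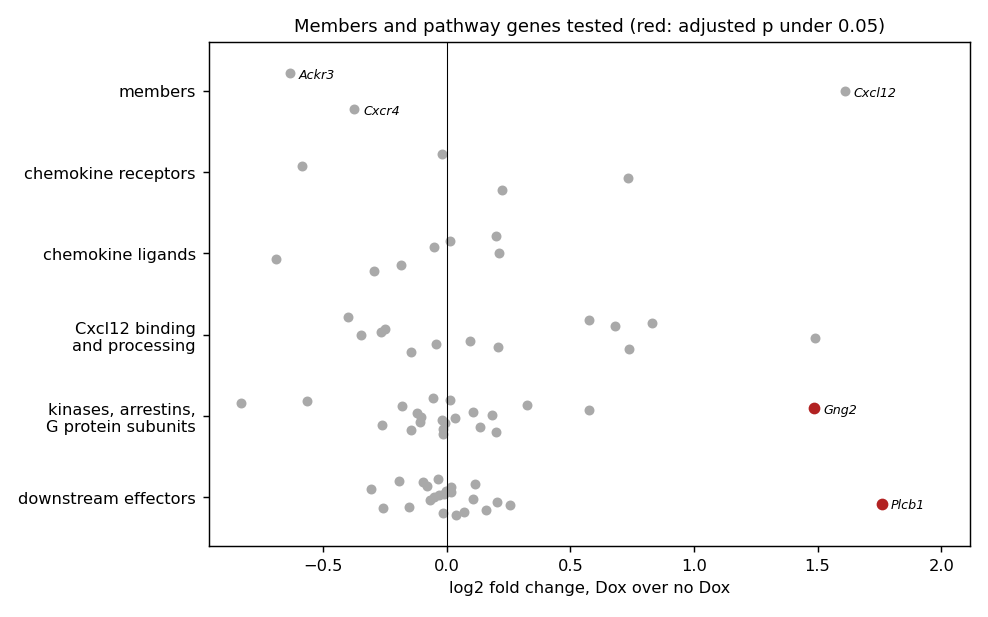
Log2 fold change, Dox over no Dox, of the 3 members and of each tested gene in 5 lists of the pathway; red points have an edgeR adjusted p under 0.05. Gng2 at 1.49 and Plcb1 at 1.76 are the only red points, and Cxcl12 lies at 1.61.

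Marker genes were read for the cell types the aggregates could hold. Their lists were chosen with earlier results of these data known, so counts of calls in them describe the libraries and add no independent support. All 8 motor neuron markers rose with Dox by edgeR's test, which called 1.23% of all genes higher. Isl1 and Lhx3 among them are the induced factors, so their rise was built into the design. The list had a summed level of 1617 and 1362 CPM with Dox and 90.8 and 64.4 CPM without. Most of that sum was Slit2, a secreted ligand of Robo receptors, at 1268 and 1048 CPM with Dox and 84.1 and 56.5 CPM without. Chat, which makes acetylcholine, had 18.1 and 16.4 CPM with Dox and 0.0367 and 0.122 CPM without. Slc18a3, the vesicular transporter of acetylcholine, had 25.7 and 25.5 CPM with Dox and 0.624 and 0.490 CPM without. Slc5a7, the choline transporter, had 18.5 and 28.7 CPM with Dox and 0.110 and 0.122 CPM without. The genes of this list and Cxcr4 thus lay on opposite sides of 0. Whether Cxcr4 was read in motor neurons or in other cells was not tested.

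Of 12 mesenchymal markers, 10 were tested and edgeR called 3 higher and 0 lower, beside 1.23% and 0.0560% of all genes. Prrx1, a homeodomain factor of mesenchyme, had 35.3 and 25.1 CPM with Dox and 2.61 and 3.63 CPM without (log2 fold change 3.28, SE 0.27, edgeR adjusted p = 0.00451). The fibrillar collagens Col3a1 and Col1a1 rose by log2 2.24 (SE 0.17, edgeR adjusted p = 0.004) and 2.00 (SE 0.23, edgeR adjusted p = 0.0175). Col3a1 had 74.2 and 61.2 CPM with Dox and 12.9 and 15.8 CPM without. The list summed to 588 and 566 CPM with Dox and 527 and 504 CPM without, none of its genes was at 0 in all libraries, and its median log2 fold change was 0.40 (8 above 0, 2 below). Most of the sum was Pdgfra, a receptor for platelet-derived growth factor, at 390 and 392 CPM with Dox and 467 and 425 CPM without (edgeR adjusted p = 0.718). Twist2 was the other gene below 0, with a log2 fold change of -1.12 (edgeR adjusted p = 0.559), and Foxc1 had one of 0.01. Its part in the level of Cxcl12 was not tested.

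Endothelial markers, also typical of cells with Cxcr4 and Ackr3, summed to 33.7 and 55.2 CPM with Dox and 27.0 and 45.3 CPM without. Replicate 2 was the higher in both groups, as for Cxcl12 and for the summed endoderm genes below. That order is not particular to these genes, since deviations of same-numbered libraries from their group means correlated at 0.606 across genes. Of 8, 5 were tested and edgeR called 1 higher, beside 1.23% of all genes. It was Erg, an ETS factor, with 71 and 146 counts with Dox and 2 and 4 without (edgeR adjusted p = 0.0197). The other 4 tested were not called, with log2 fold changes of 0.74 for Kdr, 0.34 for Tek, 0.19 for Pecam1 and 0.05 for Cdh5. In Tek, Pecam1 and Cdh5 the groups overlapped, and the rest of the list was too low to test. Erg was no longer called with the largest part as its count, and its mean is too low for the test restricted to 5 CPM. Any part of endothelium in the levels of the members was not tested. Endoderm genes were abundant in all libraries, with summed levels of 1707 and 2023 CPM with Dox and 1787 and 2027 CPM without, and edgeR called 0 of 8 tested (0 at an unadjusted p under 0.05). Gata4 stood at 553 and 644 CPM with Dox and 560 and 591 CPM without, and Dab2 at 647 and 745 CPM with Dox and 706 and 809 CPM without. Sox7 stood at 196 and 233 CPM with Dox and 232 and 241 CPM without. Cxcr4 is a known surface marker of definitive endoderm, while the list mixes genes of definitive, primitive and visceral endoderm. The median log2 fold change of the list was 0.01. Any part of endoderm in the level of Cxcr4 was not tested.

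Of 8 neural progenitor markers, 6 had a log2 fold change below 0, as the receptors did, and 2 above 0. They summed to 395 and 269 CPM with Dox and 633 and 513 CPM without. None of 8 was called by edgeR. With an unadjusted p below 0.05, 5 were lower and 0 higher, beside 4.01% and 6.25% of all genes. DESeq2 called 3 lower and 0 higher, beside 0.812% and 2.82% of all genes. In edgeR the number called, all lower, depended on which library was left out. Pax6 had 87.3 and 67.4 CPM with Dox and 149 and 134 CPM without, and Sox2 had 92.5 and 62.7 CPM with Dox and 129 and 112 CPM without. Nes had 139 and 91.3 CPM with Dox and 219 and 143 CPM without. As for Ackr3 and Cxcr4, Dox replicate 2 was the lowest library for these 3 genes. The 2 markers above 0 were the ventral progenitor factors Olig2, with 1.93 and 1.78 CPM with Dox and 1.40 and 1.67 CPM without (log2 fold change 0.27), and Nkx6-1 (0.13). Their part in the level of the receptors was not tested. Of the remaining lists, blood and microglia genes summed to at most 2.08 CPM in any library with Ptprc at 0 throughout, and neural crest and pluripotency genes held 0 calls in 4 and 5 tested genes by edgeR. At an unadjusted p under 0.05, 1 neural crest gene was lower and 1 pluripotency gene higher, beside 4.01% and 6.25% of all genes.

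**Figure D5:**
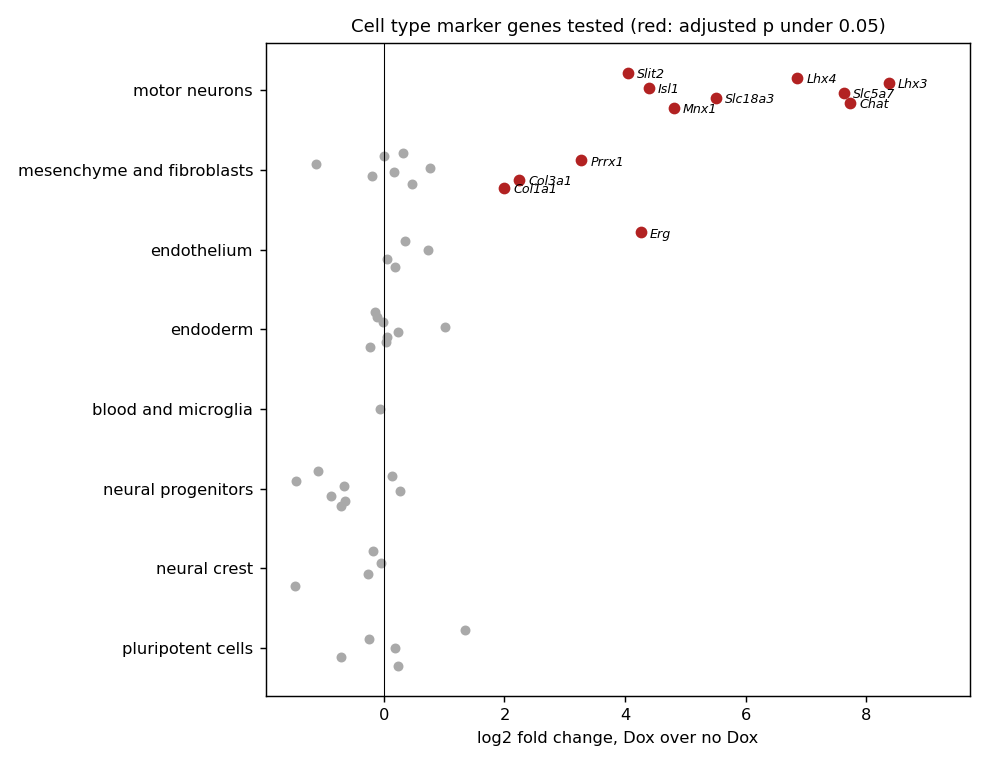
Log2 fold change, Dox over no Dox, of each tested marker gene in 8 cell type lists; red points have an edgeR adjusted p under 0.05. All 8 motor neuron markers, the induced Isl1 and Lhx3 included, are red, with 3 mesenchymal markers and Erg.

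The genes whose profile over the 4 libraries was most like that of each member were found among 10650 others with a mean of at least 5 CPM, as the smallest Euclidean distance between centred log2(CPM + 0.5) values. For Cxcl12 these were Tmem176a (distance 0.162), Abhd3 (0.322) and Angpt1 (0.379). They were picked for their likeness to Cxcl12 over these same libraries, so a like order of libraries and a like fold change follow from the choice. Tmem176a had 16.9 and 24.0 CPM with Dox and 4.41 and 7.59 CPM without, the same order of libraries as Cxcl12. Angpt1, the ligand of the endothelial receptor Tek, had 13.9 and 17.1 CPM with Dox and 3.85 and 5.22 CPM without. It was called higher, as were 1.23% of all genes (log2 fold change 1.78, SE 0.23, edgeR adjusted p = 0.028). Nearest to Cxcr4 were Pa2g4 (0.0189), Flvcr1 (0.0236) and Wdhd1 (0.0344), and nearest to Ackr3 were Syt9 (0.0511), Mycn (0.0702) and Car14 (0.0722). None of these 6 was called by edgeR, with adjusted p-values from 0.169 to 0.385. Distances were smaller around the receptors than around the ligand. Few genes had a log2 fold change as high as that of Cxcl12 (98.3% lay below it), so distances cannot be compared between members.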

How the data were processed

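RNA libraries were prepared with the Illumina TruSeq protocol, per the labels' protocols. TopHat and the mouse build mm9 are named in the submitters' processing notes. How reads were counted, with which annotation and whether by strand is not given in the sources used here. Each deposited table holds raw counts of 1 sample over 208825 parts of RefSeq gene units. The 4 rows that name no gene were left out (reads outside genes were 13.6% to 15.8% of all counts).

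Parts were summed to 21822 units. A read that spans parts may be counted in each. Symbols came from RefSeq (GRCm38.p6) and GENCODE M21 by transcript identifier (97.1% of 27601 matched), and the unit with the largest mean was kept for a repeated symbol. Cd68, Cxcl11 and Ccl28 were matched to no unit, and Jak3 shares a unit with another gene. The test was edgeR's (version 4.0.16, R 4.3.3; quasi-likelihood F test, robust, TMM, default filter, group as the single factor, Benjamini-Hochberg over 14278 genes, threshold 0.05). DESeq2 1.42.0 and limma 3.58.1 were alternatives. Part use was tested with edgeR on 148996 parts with at least 10 counts. SE is the log2 fold change divided by the root of F, and intervals use its degrees of freedom. The code was tested on simulated data.

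The replicates are biological duplicates per the design text, and their counts differed beyond sampling noise (chi-square over degrees of freedom, 32.6 with and 36.5 without Dox). The members and gene lists were chosen with earlier results of these data known. Genes named are the members, Lhx3 and Isl1, per list up to 4 called genes with the smallest adjusted p or otherwise up to 3 of the most abundant, and the 3 nearest profiles of each member. Mmp14, Mmp2, Sdc2, Cd74, Slit2, Pdgfra, Twist2, Foxc1, Kdr, Tek, Pecam1, Cdh5, Olig2 and Nkx6-1 were named outside this rule, after their values were seen.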

Additional observations from a re-analysis of the deposited data

How the results depend on the processing

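All 3 members kept their direction in all 14 alternatives. Cxcr4 was called in none, with a log2 fold change from -0.44 to -0.29. Cxcl12 passed the threshold with DESeq2 (1.61) and in the 4 fits that left out a library (1.22 to 2.15), and Ackr3 passed with DESeq2 (-0.63). The replicate numbers pair the samples by no label, and deviations of same-numbered libraries from their group means correlated at 0.606 across genes. With the number as a replicate block edgeR called Cxcl12 (1.64, adjusted p = 9.95e-08) and Ackr3 (-0.64, adjusted p = 0.000246) but not Cxcr4 (adjusted p = 0.0988), and it called 7.31% of all genes higher and 6.04% lower. Over all genes 183 were called in the test as reported, 341 with no filter, 108 with a mean of at least 5 CPM, 519 with DESeq2, 1906 with the block and 290 to 392 with a library left out. The Cxcl12-binding list held 0 calls as reported, 1 or 2 with a library left out, 1 with DESeq2 or no filter and 4 with the block, all higher. Unequal use of parts was called in 0 members by Simes p-values (0.0227% of all genes called) and with at least 50 counts per part (0.0267%), where Cxcr4 had a single part left.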
